A study of Mus musculus with 17 samples.

Results

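This account covers 6379 stretches of the mouse genome that carried the histone modification H3K27ac in CD8 thymocytes lacking the transcription factors Tcf1 and Lef1 and in wild-type CD4 thymocytes, and had no H3K27ac island in wild-type CD8 thymocytes. They are 8.03% of 79486 regions obtained by merging the H3K27ac islands of the 3 thymocyte groups wherever islands shared at least 1 bp. An island is an enriched interval that was called in 1 library, with its number of reads. The regions were chosen by the H3K27ac islands themselves, so their H3K27ac reads are given as a description. The other modifications and the Tcf1 peaks were not used to choose them.

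The study mapped H3K27ac, H3K9ac, H3K4me3 and H3K27me3 by chromatin immunoprecipitation and sequencing in mature thymocytes, with 1 library per modification and group, and Tcf1 binding in splenic CD8 T cells. WT CD8 cells came from wild-type mice and were sorted as TCRβ-high, CD69-negative, CD24-negative and CD8-positive. DKO CD8 cells carried the same sort markers and came from Tcf1-/-Lef1-/- mice, in which CD4-Cre, a recombinase driven by Cd4 regulatory sequence, had deleted both genes. WT CD4 cells were wild-type by title and source name, although their phenotype field names CD8. The Tcf1 peaks came from wild-type splenic CD8 cells sorted as TCRβ-high and CD8-positive, with Tcf1-deficient cells as the control. The sources used here give no strain, no age and no number of animals. With 1 library per group no difference has a replicate check and no p-value is given. Intervals are exact Clopper-Pearson intervals at 95% and cover counting error only; neighbouring regions are not independent. Regions are given in mm9 coordinates. Genes at the regions, the deletion itself and lineage markers such as Cd4 and Cd8a were not analysed here.

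H3K27ac is placed on nucleosomes by acetyltransferases such as p300 and removed by histone deacetylases, and it marks promoters and enhancers in use. H3K9ac behaves similarly, H3K4me3 marks active promoters, and H3K27me3 is laid down by the Polycomb repressive complex at silenced genes. Tcf1 and Lef1 are related factors that bind DNA through a high mobility group box. They act at several steps of T cell development, including the choice between the CD4 helper and CD8 cytotoxic lineages, where mature CD8 cells keep helper genes silent.

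The WT CD8 H3K27ac library, on whose lack of an island each region rests, stood apart from the other H3K27ac libraries. Regions of WT CD8 alone held 72.4% of its island reads, and 40.6% of those regions also overlapped an H3K27me3 island of WT CD8. Regions with islands in all 3 groups held 23.1% of WT CD8 island reads, against 67.9% of those of DKO CD8 and 71.1% of those of WT CD4. H3K27ac islands totalled 2056894 reads for WT CD8, 1959297 for DKO CD8 and 2505720 for WT CD4. At the 9885 regions of all 3 groups the median ratio of island reads was 2.89-fold in favour of DKO CD8 over WT CD8 and 3.87-fold in favour of WT CD4 over WT CD8. Islands covered a median of 50% of the width of these regions for WT CD8, 80% for DKO CD8 and 92.3% for WT CD4. Reads outside a library's islands do not enter these ratios.

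The regions without a WT CD8 island were moderate in reads per region. The reads per region ranged from 11 to 13581 for DKO CD8, with a median of 38. For WT CD4 they ranged from 14 to 14893, with a median of 52. The regions of all 3 groups had medians of 98 reads in DKO CD8, 131 in WT CD4 and 33 in WT CD8. Regions of DKO CD8 alone had a median of 22 reads, and those of WT CD4 alone had 32. By reads the class thus lay between the regions of all 3 groups and those of a single group. Per kb the medians were 16.7 reads in DKO CD8 and 22.2 in WT CD4, against 31.6 and 43.2 at regions of all 3 groups. Regions of DKO CD8 alone had 16.9 DKO CD8 reads per kb, and those of WT CD4 alone had 17.9 WT CD4 reads per kb. Regions of DKO CD8 alone were narrower (median 1400 bp). The reads are per kb of merged width, which in the class includes stretches with WT CD4 islands only. DKO CD8 islands covered a median of 75% of that width. The DKO CD8 values of the class and of DKO CD8 alone thus rest on unlike widths, and no order is read from them. Widths ranged from 200 to 82800 bp with a median of 2400 bp, and the regions covered 17.4 Mb in all. They held 22.3% of the H3K27ac islands of DKO CD8 and 26.4% of those of WT CD4. The widest one, chromosome 11, 3018001 to 3100800, held the highest reads in both libraries. It also overlapped H3K9ac, H3K4me3 and H3K27me3 islands of all 3 groups, and a WT CD8 H3K27ac island lay 1000 bp away. Without this region the maxima were 610 reads in DKO CD8 and 712 in WT CD4. Of the class, 77 regions overlapped islands in 9 or more of the 12 histone libraries or exceeded 100 reads per kb, the widest one among them. These 77 held 5.84% of the DKO CD8 reads and 5.004% of the WT CD4 reads of the class.

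**Figure D1:**
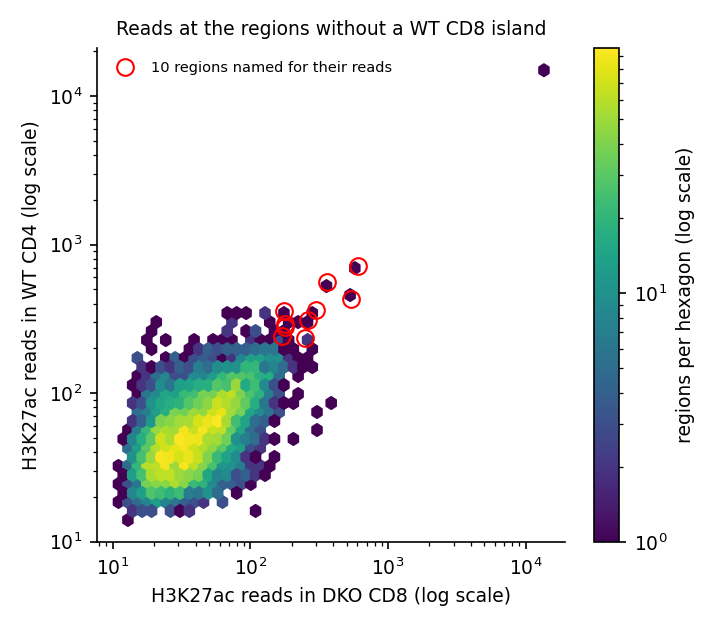
H3K27ac island reads in DKO CD8 (x, log scale) and WT CD4 (y, log scale) at the 6379 regions without a WT CD8 island; colour gives the number of regions per hexagon and red circles mark the 10 regions named for their reads. Most regions lie near the medians of 38 and 52 reads, and 1 region on chromosome 11 stands apart with 13581 and 14893 reads.

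How often a region of DKO CD8 and WT CD4 lacked a WT CD8 island varied with its DKO CD8 reads. Both come from the H3K27ac islands that the rule used, and reads are summed over the merged region. The shares therefore describe the rule and are not a separate result. Among regions with 11 to 25 DKO CD8 reads, 1484 of 1851 (80.2%, 78.3 to 82.0) lacked one. The share was 69.4% for 26 to 37 reads, 54.6% for 38 to 58 reads and 32.0% for 59 to 103 reads. With 104 reads or more it was 323 of 5014 (6.44%, 5.78 to 7.16). Among all H3K27ac regions of DKO CD8, those without WT CD4 included, the class made up 14.9%, 31.2%, 42.5%, 30.6% and 6.38% of the same bins from the weakest to the strongest, and so was most frequent in the middle.

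**Figure D2:**
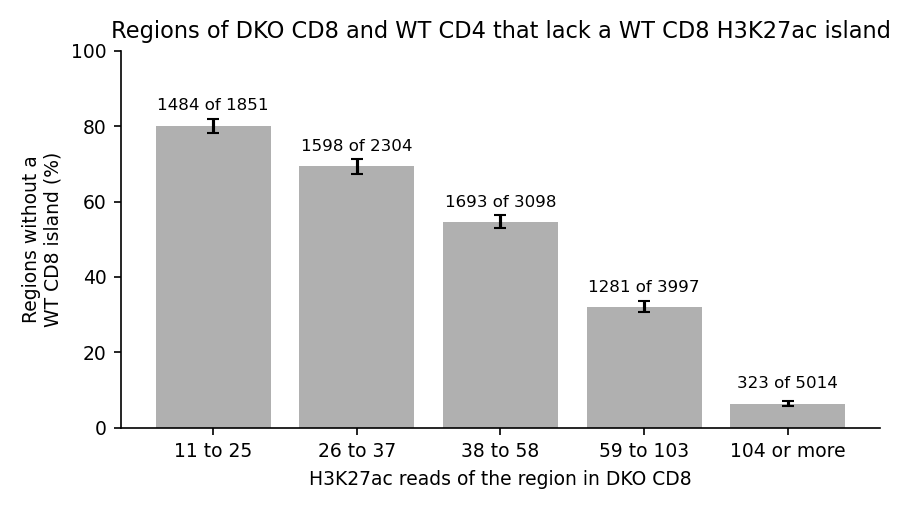
Share of H3K27ac regions of DKO CD8 and WT CD4 that had no WT CD8 island (y, percent), by the reads of the region in DKO CD8 (x); bars give the share, whiskers the 95% exact interval, and the labels the counts. The share falls from 80.2% in the weakest bin to 6.44% in the strongest.

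The reads were then scaled to the level of WT CD8 at regions of all 3 groups. This is not a difference in island reads as a whole, of which WT CD8 had more than DKO CD8. Dividing each region's DKO CD8 reads by the ratio of 2.89 gave a median of 13.2 expected WT CD8 reads, while WT CD8 islands had at least 10 reads and a median of 24. The scaled value reached that median of 24 at 1037 regions (16.3%, 15.4 to 17.2) and lay under 10 reads at 1890 (29.6%, 28.5 to 30.8). Scaled from WT CD4 instead, 1077 regions (16.9%) reached 24 reads, and 567 (8.89%) did so by both. The count depended on the scale: 5387 regions reached the limit when libraries were divided by total island reads, 52 when reads per kb were compared, and 24 when the limit was the 90th percentile of WT CD8 islands, 68 reads. How far the lower WT CD8 island reads at regions of all 3 groups set the class was not tested further.

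At the edge of the rule, 201 regions (3.15%) lay within 600 bp of a WT CD8 H3K27ac island, with medians of 38 reads in DKO CD8 and 49 in WT CD4. The median distance to the nearest WT CD8 island was 11400 bp. Just outside the rule, 894 regions of all 3 groups had 15 or fewer WT CD8 reads, with medians of 52 reads in DKO CD8 and 69 in WT CD4. WT CD8 islands covered at most 25% of the width at 1578 regions of all 3 groups (16.0%).

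Within the class, DKO CD8 and WT CD4 were then compared. The log2 ratio of DKO CD8 over WT CD4, centred on its median over all 16264 regions with islands of both, had a median of -0.02, and its central 90% ran from -1.24 to 1.07. At 382 regions (5.99%) DKO CD8 was at least 2-fold higher, against a background of 4.32% over all regions of both libraries. At 554 regions (8.68%) WT CD4 was at least 2-fold higher, against a background of 7.29%. Both shares were slightly above the background, and the class had fewer reads per region than the regions of all 3 groups; the part that plays was not tested. Across the 6379 regions the reads of DKO CD8 and WT CD4 correlated with Spearman's rho 0.56, and reads per kb with 0.57. Across the 9885 regions of all 3 groups the values were 0.84 and 0.83. The class had a narrower range of reads: the central 90% of DKO CD8 reads ran from 18 to 104, against 28 to 350 at regions of all 3 groups. The part this range plays in the lower rho was not tested. Each pair of values shares its merged region and, per kb, its width, so these are descriptions across regions. DKO CD8 islands covered a median of 75% of a region's width and WT CD4 islands 93.3%, close to the 80% and 92.3% at regions of all 3 groups.

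Among the 10 regions with the most reads in both libraries, after leaving out places enriched in many libraries, the first was chromosome 8, 20017601 to 20029800. It had 610 H3K27ac reads in DKO CD8, 712 in WT CD4 and no island in WT CD8, with the nearest WT CD8 island 87000 bp away. H3K4me3 did not follow this order there: its islands held 613 reads for WT CD8, 562 for DKO CD8 and 667 for WT CD4. H3K9ac had an island in WT CD4 alone, with 607 reads. An H3K27me3 island of WT CD8 with 980 reads also overlapped this region, and neither other group had one. The second region, chromosome 8, 19775401 to 19787200, had the same arrangement, with 362 and 563 H3K27ac reads in DKO CD8 and WT CD4. Its H3K4me3 reads were 403 for WT CD8, 294 for DKO CD8 and 288 for WT CD4, and its WT CD8 H3K27me3 island had 601 reads. Its H3K9ac island, in WT CD4 alone, had 490 reads. Each of these regions held a Tcf1 peak, scored 202.13 and 173.26 by the authors. Whether their sequences are near copies of each other, which could split reads between them, was not tested.

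The next regions were more varied. Chromosome 7, 71218201 to 71236000, spanned 17.8 kb with 537 H3K27ac reads in DKO CD8 and 428 in WT CD4. It had an H3K9ac island of 68 reads in WT CD8 and none of that modification in the other groups, although H3K4me3 was highest in WT CD4 (138 reads, against 15 in DKO CD8 and no island in WT CD8). Chromosome 9, 20964801 to 20974600, had 300 reads from DKO CD8 and 365 from WT CD4, together with H3K27me3 islands of 361 and 162 reads in the same groups and none in WT CD8. H3K27ac and H3K27me3 thus occurred together in both groups at this region, in libraries of whole cell populations.

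At chromosome 7, 26062401 to 26068400, the acetylation marks followed the same grouping. H3K27ac had 260 reads from DKO CD8 and 308 from WT CD4, and H3K9ac had 60 and 79, with no WT CD8 island of either mark. Chromosome 10, 80064601 to 80074800 (249 and 235 H3K27ac reads), had an H3K9ac island of 13 reads in WT CD8 and 57 in WT CD4. Its H3K4me3 followed the H3K27ac grouping, with 28 reads in DKO CD8, 62 in WT CD4 and no WT CD8 island. Chromosome 10, 127870401 to 127877600 (179 and 279 reads), had no H3K4me3 island in any group. Chromosome 17, 35182401 to 35190000 (178 and 294 reads), had H3K4me3 in each group, with 63 reads for WT CD8, 43 for DKO CD8 and 92 for WT CD4. Chromosome 6, 48648201 to 48657200 (174 and 359 reads), lay 400 bp from a WT CD8 H3K27ac island and had H3K9ac islands of 26, 67 and 59 reads in WT CD8, DKO CD8 and WT CD4. Chromosome 15, 38228601 to 38233000 (171 and 241 reads), had H3K4me3 reads of 58, 29 and 114 in WT CD8, DKO CD8 and WT CD4. It also had an H3K9ac island of 53 reads in WT CD4 alone and an H3K27me3 island of 70 reads in DKO CD8 alone. Of these 10 strongest regions, 5 had an H3K4me3 island in WT CD8 and 5 had an H3K9ac island there, 2 had neither, and 2 had H3K4me3 in DKO CD8 and WT CD4 but not in WT CD8.

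The other modifications, from libraries the rule did not use, tell whether WT CD8 lacked them too. H3K4me3 islands overlapped 1721 regions of the class for WT CD8 (26.98%, 25.9 to 28.1), 1553 for DKO CD8 (24.3%, 23.3 to 25.4) and 2397 for WT CD4 (37.6%, 36.4 to 38.8). The shares over all 79486 H3K27ac regions were 21.98%, 13.3% and 14.7%, so WT CD8 led DKO CD8 by more there. WT CD8, which had no H3K27ac island at the class, thus had an H3K4me3 island slightly more often than DKO CD8. With the H3K4me3 lists trimmed to equal covered length this order turned, to 22.3% in WT CD8 and 24.3% in DKO CD8. At regions of all 3 groups the shares were 58.4%, 58.0% and 65.2%, and at regions of DKO CD8 alone they were 4.88%, 3.63% and 6.55%. The class again lay between these, above regions called in DKO CD8 alone.

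H3K9ac gave a similar picture in the CD8 groups. It overlapped 520 regions for WT CD8 (8.15%, 7.49 to 8.85), 475 for DKO CD8 (7.45%, 6.81 to 8.12) and 2448 for WT CD4 (38.4%, 37.2 to 39.6). Over all H3K27ac regions, 54.6% of them of WT CD8 alone, the shares were 7.38%, 6.56% and 17.9%. In the class both CD8 groups lay close to this mixed level and WT CD4 lay above it. Regions of all 3 groups had 37.1%, 41.3% and 73.8%. Those of DKO CD8 alone had 2.34%, 1.08% and 8.25%, and those of WT CD4 alone had 2.52%, 0.860% and 12.2%. For H3K9ac too, the class lay between the regions of all 3 groups and these regions of a single group. The H3K9ac libraries differed in size, with 9860 islands for WT CD8, 6516 for DKO CD8 and 32651 for WT CD4. At equal covered length the shares were 7.56%, 7.45% and 16.6%. WT CD4 therefore kept the highest share, while the CD8 groups stayed close to each other. Among the 1037 regions that reached 24 scaled reads, a limit applied to this question after the data were seen, H3K9ac overlapped 15.1% (13.0 to 17.5) in WT CD8 and 20.7% (18.3 to 23.3) in DKO CD8, and these regions were selected on DKO CD8 acetylation itself, so no order of the CD8 groups is read from them. In the same 1037 regions H3K4me3 was found in 41.9% in WT CD8 and 40.8% in DKO CD8.

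H3K27me3 overlapped 563 regions for WT CD8 (8.83%, 8.14 to 9.55), 971 for DKO CD8 (15.2%, 14.3 to 16.1) and 1053 for WT CD4 (16.5%, 15.6 to 17.4). Within the class the Polycomb mark was least frequent in WT CD8. Over all H3K27ac regions WT CD8 was highest, with 27.2%, 11.2% and 12.6%. Most of those are regions of WT CD8 alone, which had 40.6%, 7.92% and 9.20%. Regions of all 3 groups showed 6.42%, 12.1% and 9.51%, with the CD8 groups in the same order as in the class. Regions of DKO CD8 alone and of WT CD4 alone also had H3K27me3 least often in WT CD8, so this was not particular to the class. WT CD8 was also highest at regions of both wild types without DKO CD8 (34.3%, 21.5% and 27.3%) and at those of both CD8 groups without WT CD4 (36.5%, 30.9% and 26.7%). At equal covered length of the H3K27me3 lists the shares in the class were 6.99%, 15.2% and 13.2%.

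**Figure D3:**
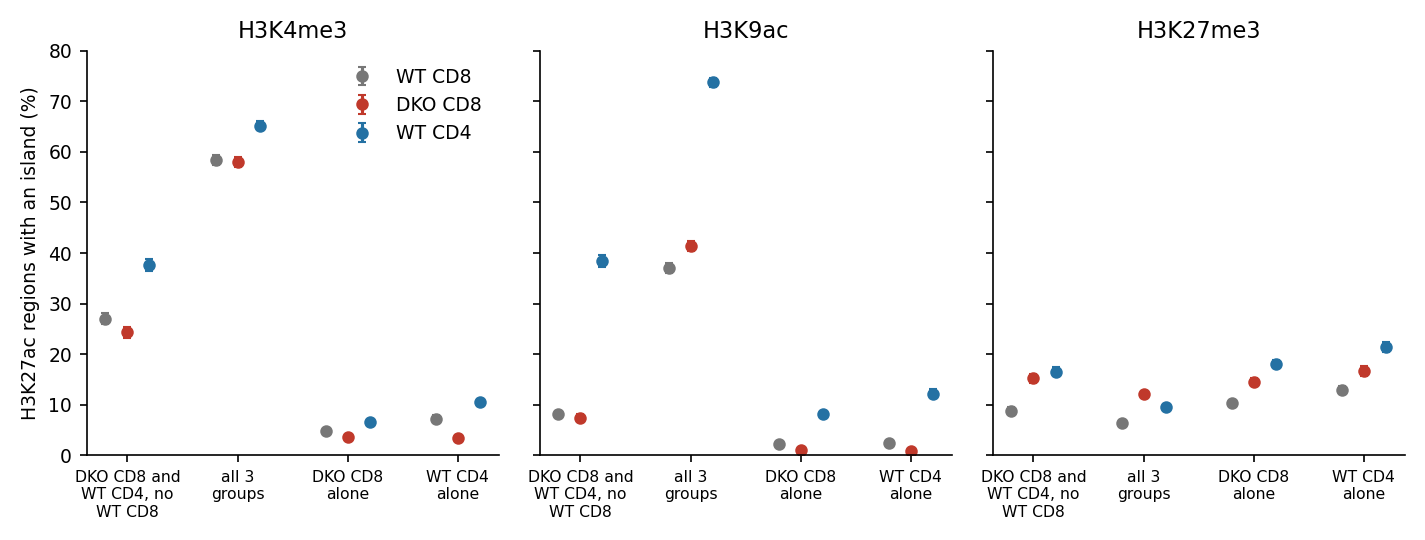
Share of H3K27ac regions with an island of H3K4me3, H3K9ac or H3K27me3 (y, percent) in WT CD8 (grey), DKO CD8 (red) and WT CD4 (blue), for 4 classes of H3K27ac region (x); whiskers are 95% exact intervals. At regions without a WT CD8 H3K27ac island, WT CD8 and DKO CD8 lie close together for H3K4me3 (26.98% and 24.3%) and H3K9ac (8.15% and 7.45%).

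The grouping of H3K27ac was then sought in each other modification, as an island in DKO CD8 and WT CD4 without one in WT CD8. For H3K4me3 it occurred at 351 regions of the class (5.50%, 4.96 to 6.09), against 1.41% of all 79486 H3K27ac regions and 5.96% of regions of all 3 groups. For H3K9ac it occurred at 283 (4.44%, 3.94 to 4.97), against 2.19% of all regions and 13.9% (13.2 to 14.6) of those of all 3 groups. For H3K27me3 it occurred at 309 (4.84%, 4.33 to 5.40), against 2.57% and 3.17% (2.83 to 3.53). The background over all regions is low because most of them are regions of WT CD8 alone. Beside the regions of all 3 groups, the class had the grouping about as often for H3K4me3, less often for H3K9ac and more often for H3K27me3. Regions of WT CD4 alone and of DKO CD8 alone had it for H3K27me3 at 4.25% and 3.95%, with intervals that overlapped that of the class. The higher H3K27me3 share than at regions of all 3 groups was thus not particular to the class. For H3K4me3 the shares of these regions were 0.676% and 0.488%, and for H3K9ac 0.184% and 0.181%, below those of the class. All these shares also depend on how often a mark occurs at all. An H3K4me3 island of at least 1 group overlapped 44.9% of the class and 72.0% of regions of all 3 groups. The values were 17.2% at WT CD4 alone and 13.1% at DKO CD8 alone. H3K4me3 was found in all 3 groups at 990 regions of the class (15.5%), against 7.47% of all H3K27ac regions and 48.3% of regions of all 3 groups. It was found in WT CD8 and WT CD4 but not the deficient cells at 421 (6.60%), against 1.86% and 5.66%.

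The opposite grouping of H3K27me3, with the Polycomb mark in WT CD8 and in neither group that had H3K27ac, was also counted. It was present at 53 regions (0.831%, 0.623 to 1.09), against 2.04% of regions of all 3 groups and 19.5% of all H3K27ac regions, the latter again mostly of WT CD8 alone.

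Read levels were compared where both libraries had an island. Regions of each modification were built from its 3 lists in the same way, and log2 ratios of reads were centred to a median of 0 over all regions with islands of both libraries. H3K4me3 regions that touched the class and no H3K27ac region of all 3 groups numbered 1037 in the comparison of DKO CD8 and WT CD8, with a median of -0.08 (quartiles -0.49 and 0.39). At least 2-fold higher in DKO CD8 were 4.82% of them, against a background of 5.90%, and at least 2-fold lower were 6.94%, against 7.42%. Where both CD8 libraries had an H3K4me3 island, the class thus gave no excess of higher values in DKO CD8. An H3K4me3 region without a WT CD8 island enters no ratio, so this comparison cannot show gains at such regions. In WT CD4 over WT CD8 the median of 1393 such regions was 0.02, with 6.17% higher and 5.67% lower, against backgrounds of 6.17% and 8.10%.

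For H3K9ac, the median over 119 such regions was -0.23 for DKO CD8 relative to WT CD8. None was at least 2-fold higher (background 3.88%), and 6 were at least 2-fold lower (5.04%, background 3.63%). In WT CD4 over WT CD8 the median of 379 regions was -0.35, with 1.85% higher and 16.6% lower against backgrounds of 6.36% and 11.4%. These regions were weak, with medians of 20 and 19 WT CD8 reads against 25 and 22 over all H3K9ac regions compared. The centring fold was 1.71 for DKO CD8 over WT CD8 and 2.31 for WT CD4 over WT CD8. Before centring, the medians were 29 DKO CD8 reads against 20, and 34 WT CD4 reads against 19. A value below 0 is thus relative to all H3K9ac regions compared and does not mean fewer reads than in WT CD8. Islands in WT CD8 start at 10 reads, so a region with fewer WT CD8 reads enters no ratio; the part this plays in the lower values was not tested.

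For H3K27me3, 526 such regions had a median of 0.38 in DKO CD8 over WT CD8, with 11.8% higher and 5.32% lower against backgrounds of 7.45% and 21.4%. Regions of H3K27me3 touching H3K27ac of all 3 groups had a similar median of 0.33. In WT CD4 over WT CD8 the median of 543 regions was 0.19, with 8.29% higher and 4.79% lower against backgrounds of 7.09% and 19.0%.

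**Figure D4:**
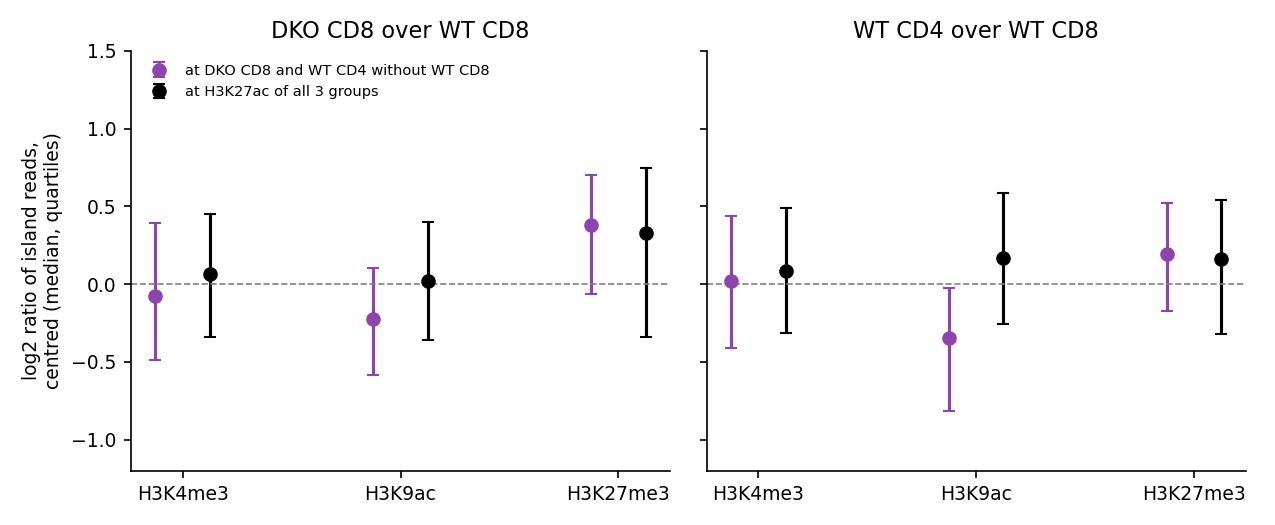
Centred log2 ratio of island reads (y; points are medians, whiskers the quartiles across regions) for H3K4me3, H3K9ac and H3K27me3 (x), in DKO CD8 over WT CD8 (left) and WT CD4 over WT CD8 (right), at regions touching the class without a WT CD8 H3K27ac island (purple) or H3K27ac of all 3 groups (black). The H3K4me3 medians of the class lie near 0 (-0.08 and 0.02) and those of H3K9ac below 0 (-0.23 and -0.35), where 0 is the median over all regions of the mark compared.

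The class split into regions with and without the promoter mark. H3K4me3 was present in at least 1 group at 2862 regions (44.9%, 43.6 to 46.1) and in none at 3517 (55.1%). It was present in at least 1 group at 30.2% of all H3K27ac regions and 72.0% of regions of all 3 groups. Regions with H3K4me3 were narrower (median 2000 bp against 2600 bp) and stronger, with medians of 45 and 58 H3K27ac reads in DKO CD8 and WT CD4 against 34 and 48. H3K9ac of WT CD4 overlapped 67.6% of the regions with H3K4me3 and 14.6% of those without. H3K27me3 of DKO CD8 overlapped 20.1% of the regions with H3K4me3 and 11.3% of those without, and H3K27me3 of WT CD8 overlapped 11.5% and 6.62%. At the 990 regions with H3K4me3 in all 3 groups, H3K9ac was present in 26.97% (24.2 to 29.9) in WT CD8 and 29.0% (26.2 to 31.9) in DKO CD8. A further 2129 regions (33.4%) had no island of H3K4me3, H3K9ac or H3K27me3 in any group and no Tcf1 peak, with medians of 33 and 45 H3K27ac reads.

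At 30 regions (0.470%) H3K4me3 and H3K9ac both followed H3K27ac, with islands in DKO CD8 and WT CD4 and no WT CD8 island of either mark. The share was 0.226% of all H3K27ac regions and 1.49% (1.26 to 1.75) of regions of all 3 groups, so the class did not stand above the latter. The strongest by DKO CD8 reads was chromosome 11, 120488001 to 120495600. It had H3K27ac reads of 166 in DKO CD8 and 163 in WT CD4, H3K9ac reads of 27 and 82, and H3K4me3 reads of 19 and 31. It held 2 Tcf1 peaks, scored up to 73.31.

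Chromosome 5, 4103601 to 4106000, had H3K27ac reads of 128 in DKO CD8 and 103 in WT CD4, H3K9ac reads of 30 and 41, and H3K4me3 reads of 40 and 46. Chromosome 4, 34828001 to 34831200, had 123 and 114 H3K27ac reads, 18 and 42 H3K9ac reads, and 36 and 75 H3K4me3 reads. These are compact regions with the 3 marks typical of an active promoter in the same pair of groups. Chromosome 3, 108356401 to 108358600, had 118 and 125 H3K27ac reads, and chromosome 11, 82763401 to 82768800, had 113 and 236. The latter held a Tcf1 peak with a score of 320.44. Of the 30 regions, 10 held a Tcf1 peak (33.3%, 17.3 to 52.8).

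Tcf1 peaks of splenic CD8 cells were present at 1094 regions of the class (17.15%, 16.2 to 18.1), against 7.30% of all H3K27ac regions. Regions of WT CD8 alone, 54.6% of all regions, held a peak at only 0.141% and lower that background. The share was 40.2% (39.3 to 41.2) at regions of all 3 groups, 5.82% (5.27 to 6.42) at those of WT CD4 alone and 1.29% (1.09 to 1.52) at those of DKO CD8 alone. The class held 1150 of all 7807 peaks (14.7%), and the regions of all 3 groups held 60.6%. Per Mb of sequence there were 66.0 peaks in the class and 123 in regions of all 3 groups. Most regions with a peak held a single one; 55 held more, up to 3.

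Since stronger regions held peaks more often, the classes were compared at equal DKO CD8 reads. With 11 to 25 reads, 11.1% (9.56 to 12.8) of the class held a peak, against 14.7% (11.3 to 18.8) at regions of all 3 groups and 0.735% (0.556 to 0.953) at DKO CD8 alone. With 38 to 58 reads the shares were 18.0% (16.2 to 19.9), 26.05% (23.8 to 28.4) and 2.85% (1.77 to 4.33). With 59 to 103 reads they were 24.7% (22.3 to 27.1), 33.6% (31.8 to 35.4) and 7.48% (3.79 to 13.0). With 104 reads or more the class reached 31.9% (26.8 to 37.3) and the regions of all 3 groups 53.5% (52.0 to 54.9), while DKO CD8 alone had only 16 regions. At equal DKO CD8 reads the class thus held peaks more often than DKO CD8 alone in the 4 bins up to 103 reads, and less often than regions of all 3 groups in the 3 bins from 26 to 103 reads, with intervals that did not overlap. The highest bin has no upper limit, and its reads were not equal, with a median of 124 DKO CD8 reads in the class and 168 at regions of all 3 groups. In the weakest bin the intervals of the class and of all 3 groups overlapped.

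**Figure D5:**
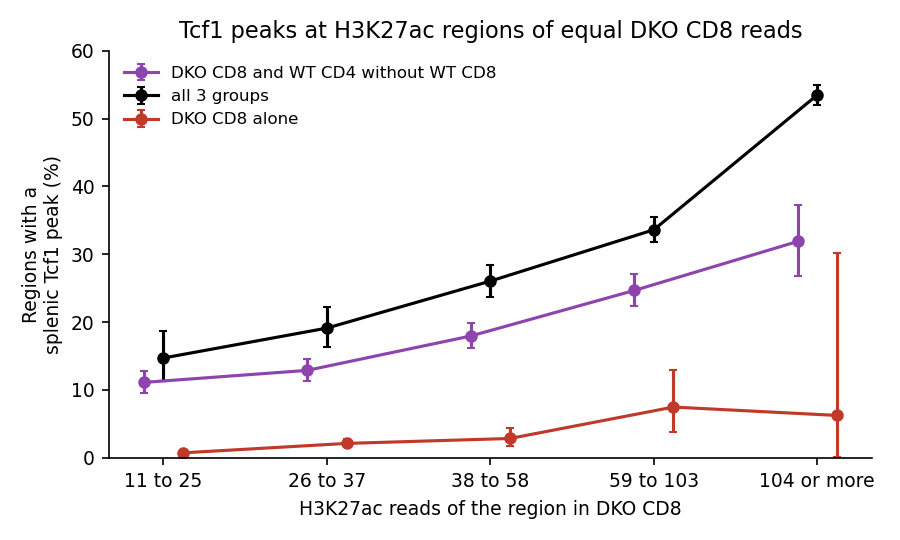
Share of H3K27ac regions with a Tcf1 peak (y, percent) by their reads in DKO CD8 (x), for the class without a WT CD8 island (purple), of all 3 groups (black) and of DKO CD8 alone (red); whiskers are 95% exact intervals. The purple points rise from 11.1% to 31.9% and lie between the other classes; the last red point rests on 16 regions.

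H3K4me3 of WT CD8 likewise lay between the other classes in the 4 bins up to 103 reads, with intervals that did not overlap. For H3K9ac of WT CD8 this held in the bins from 26 to 58 reads. With 59 to 103 DKO CD8 reads, H3K4me3 of WT CD8 was found at 38.5% (35.8 to 41.2) of the class, 57.8% (55.9 to 59.6) of regions of all 3 groups and 10.2% (5.82 to 16.3) of those of DKO CD8 alone. H3K4me3 of DKO CD8 itself was found at 37.4%, 56.3% and 10.2%, so both CD8 groups differed between classes in the same direction. H3K9ac of WT CD8 was found at 12.7% (10.9 to 14.7), 28.2% (26.6 to 29.97) and 6.12% (2.84 to 11.3) of these regions, where the intervals of the class and of DKO CD8 alone overlapped, and H3K9ac of DKO CD8 at 14.7%, 29.8% and 2.04%.

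Regions of the class with a Tcf1 peak had medians of 49 reads in DKO CD8 and 67.5 in WT CD4, against 37 and 50 without a peak, at the same median width of 2400 bp. Their log2 ratio of DKO CD8 over WT CD4 was nearly the same, with medians of -0.04 and -0.01. H3K4me3 of WT CD8 overlapped 35.6% (32.8 to 38.6) of regions with a peak and 25.2% (24.0 to 26.4) of those without. H3K27me3 of DKO CD8 overlapped 12.3% and 15.8%. The peak middle lay a median of 346.5 bp from the region's centre, and 72.5% of peaks fell in the central 50% of the width, against 76.0% at regions of all 3 groups.

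By the authors' peak score, the class took similar shares of weak and strong peaks. With the peaks in 4 groups by score, it held 15.8% (14.2 to 17.5) of the lowest group, 15.6% and 13.9% of the next and 13.6% (12.1 to 15.2) of the highest. The median score was 73.5 in the class, 80.3 in regions of all 3 groups and 76.4 over all peaks. The highest-scoring peak of the class, at 443.36, lay on chromosome 1, 89533280 to 89534289, within a region of 58 H3K27ac reads in DKO CD8 and 73 for WT CD4. No H3K4me3 or H3K9ac island overlapped it in any group, and WT CD4 had an H3K27me3 island of 68 reads.

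The next peak, with a score of 443.09, lay in chromosome 1, 155165801 to 155168000, a region of 37 and 30 H3K27ac reads. It overlapped H3K27me3 islands of 67 reads in WT CD8 and 944 in WT CD4. Chromosome 7, 52985801 to 52991400 (score 441.48), had 97 H3K27ac reads from DKO CD8 and 233 from WT CD4, and chromosome 2, 13334001 to 13336800 (435.16), had 87 and 90. Chromosome 5, 134918201 to 134923000 (434.14), had 82 and 88. None of these 5 regions with the highest scores had an H3K4me3 or H3K9ac island in any group, so they belong to the part of the class without the promoter mark.

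The regions that separated DKO CD8 from WT CD4 most had to reach 100 reads in the higher library. DKO CD8 exceeded WT CD4 most at chromosome 11, 83473801 to 83477200, with 103 reads against 17 and a centred log2 ratio of 2.99 (95% interval 2.24 to 3.83). At chromosome 8, 126759801 to 126768400, the reads were 306 and 59 (2.77, 2.36 to 3.20). At chromosome 10, 80964801 to 80976800, they were 416 and 87 (2.65, 2.31 to 3.001), with a Tcf1 peak. Chromosome 10, 69642001 to 69647000, and chromosome X, 72994001 to 72998400, followed with ratios of 2.56 each. None of these 5 regions had an H3K9ac or H3K4me3 island in DKO CD8, while 3 of them had an H3K9ac island in WT CD4, the group with less H3K27ac, with 49, 19 and 29 reads.

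WT CD4 exceeded DKO CD8 most at chromosome 12, 107895201 to 107901400, with 285 reads against 21 (-3.37, -4.08 to -2.73). Chromosome 19, 10845801 to 10854200, had 254 against 20 (-3.27), and chromosome 4, 134980801 to 134985400, had 231 against 19 (-3.21). Chromosome 11, 86706201 to 86709000 (-3.04), and chromosome 9, 45011801 to 45019400 (-3.03), had 15 DKO CD8 reads each. None of these 5 held a Tcf1 peak. Reads of the lower library that lie beyond its island are not listed, and these ratios could lie beyond their intervals. Over the class, a Tcf1 peak was present at 15.2% (11.7 to 19.2) of the 382 regions higher in DKO CD8 and 21.1% (17.8 to 24.8) of the 554 higher in WT CD4.

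The regions were spread over the genome like those of all 3 groups. Over the 19 autosomes their number per Mb varied by 25.5% (coefficient of variation), against 25.7% for regions of all 3 groups. Chromosome 11 had the most, at 4.11 per Mb, and chromosome X had 0.984 per Mb, with 161 regions. Chromosome X also had the highest share of the class among regions of DKO CD8 and WT CD4, at 45.9%, against 35.2% on chromosome 12, the lowest autosome. On chromosome X, 8.07% (4.37 to 13.4) of the class held a Tcf1 peak.

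Of the class, 1020 regions (16.0%) lay within 5000 bp of a region of all 3 groups, and the median distance to one was 26800 bp. Regions within 5000 bp of one had H3K4me3 of WT CD8 at 17.9% (15.6 to 20.4). The 2097 regions (32.9%) with no region of all 3 groups within 50000 bp had it at 32.1% (30.1 to 34.2). H3K27me3 of DKO CD8 was likewise present at 8.82% and 19.0%. Tcf1 peaks did not differ in this way, at 17.7% (15.4 to 20.2) and 18.1% (16.5 to 19.8). The more isolated regions thus carried the promoter mark and the Polycomb mark more often, and a Tcf1 peak about as often.

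Another region of the class lay within 10000 bp for 1305 regions (20.5%), and joining them at that distance gave 95 runs of 3 or more. The longest runs, of 5 regions each, were chromosome 6, 124847201 to 124868400, and chromosome 5, 34861801 to 34888000. The run on chromosome 6 summed to 260 H3K27ac reads from DKO CD8 and 384 from WT CD4, with H3K4me3 at 1 region and no Tcf1 peak. The run on chromosome 5 summed to 259 and 382 reads, with a Tcf1 peak at 1 region. A run of 4 regions on chromosome 16, 24150201 to 24164800, summed to 133 and 231 reads and had Tcf1 peaks at 3 regions.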

How the data were processed

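The authors deposited 12 lists of islands, each for 1 histone library, with a whole-number count of reads per island that was not normalized, and 1 list of Tcf1 peaks with a score per peak of at least 50. Tools listed per the submitters' processing notes were SICER 1.1, MACS 1.4.2, Bowtie2 2.2.5 and FastQC, without their roles, and the build was mm9. Per the labels, sequencing of some unnamed libraries was repeated to add coverage. Islands lie on a grid of 200 bp. No library total was at hand; island reads stand in for depth.

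Regions, overlaps and shares were computed with pandas 2.3.3 and numpy 2.4.6 under Python 3.11.15, intervals with SciPy 1.17.1 and figures with matplotlib 3.10.9. These steps were tested on simulated data against bedtools 2.31.1. Named regions were 10 by reads in both libraries (leaving out places with islands in 9 or more libraries or over 100 reads per kb), 5 by Tcf1 score, 5 where H3K4me3 and H3K9ac follow, and 5 at each end of the DKO CD8 to WT CD4 ratio. Bins of DKO CD8 reads start at the minimum, quartiles and 95th percentile of the class. The regions and rules were chosen with earlier results of these data known. The runs of neighbouring regions were named after their values were seen. No mm9 genome or annotation was used, so the planned gene lists and sequences are not analysed here.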

Additional observations from a re-analysis of the deposited data

How the results depend on the processing

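Only reads within islands are listed, so the lack of a WT CD8 island is not a measured level of 0, and 1 library per group leaves no replicate to set aside. No paired analysis was possible because each group has 1 library per modification. The number of regions in the class stayed within 1.5 times of 6379 when islands had to share at least 50% of either island (6310), when islands closer than 1 kb were merged (5887), when lists were trimmed to equal covered length (8113) and, chosen after seeing the data, when the WT CD8 list alone was trimmed (8446). Of the 8113, 6072 overlapped the class as deposited. It was 4212 with islands above the median reads of their list.

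The share with a Tcf1 peak was 8.23% with peaks above the median score, 26.3% at regions with at least 50 reads in both libraries, 20.9% in the trimmed lists and, as an alternative chosen after seeing the data, 26.3% at the 1037 regions reaching 24 scaled reads. It stayed within its interval by the peak middle (16.8%), without places enriched in many libraries (17.2%) and without regions that had a WT CD8 island within 5 kb (17.3%).

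The remaining shares are given for WT CD8, DKO CD8 and WT CD4 in turn. With islands above the median reads of their list, H3K9ac was at 2.98%, 2.01% and 25.04%, H3K4me3 at 18.8%, 17.0% and 29.9%, and H3K27me3 at 5.97%, 12.01% and 12.9%. With lists trimmed to equal covered length, H3K9ac in WT CD4 was at 16.6%, H3K4me3 in WT CD8 and WT CD4 at 22.3% and 36.2%, and H3K27me3 in WT CD8 and WT CD4 at 6.99% and 13.2%. At regions with at least 50 reads in both libraries, H3K9ac was at 15.02%, 17.3% and 58.3%, H3K4me3 at 42.2%, 40.1% and 52.7%, and H3K27me3 at 6.52%, 11.8% and 11.8%. At the 1037 regions, selected on their DKO CD8 reads, H3K9ac was at 15.1%, 20.7% and 59.02%, H3K4me3 at 41.9%, 40.8% and 50.2%, and H3K27me3 at 6.27%, 11.3% and 12.2%. These alternatives take fewer islands or stronger regions by construction; the cause of each shift was not tested. Leaving out the places enriched in many libraries kept each share within its interval.

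The counts of regions 2-fold apart between DKO CD8 and WT CD4 stayed within 1.5 times (349 and 610 by total island reads, 283 and 508 where the higher library reached 50 reads). The number reaching the WT CD8 limit was 5387 by total island reads, 24 at the 90th percentile and 52 per kb.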
